A study of Mus musculus with 24 samples.

Results

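The genes described are 9 that encode secreted factors acting on blood and lymph vessels: Vegfa, Vegfb, Vegfc and Pgf (ligands of the VEGF receptors), Angpt1 and Angpt2 (angiopoietins), Angptl2 and Angptl4 (angiopoietin-like proteins) and Adm (the precursor of the peptide adrenomedullin). They were taken by symbol from a deposited table of 24043 gene symbols, and all 9 were found. On GRCm38.p6 Vegfa and Angptl4 lie on chromosome 17, Vegfc and Angpt2 on 8, Vegfb on 19, Pgf on 12, Angpt1 on 15, Angptl2 on 2 and Adm on 7. The RNA came from C2C12 cells, an established mouse myoblast line that fuses into myotubes when serum is lowered. Cells were in growth medium with 10% fetal bovine serum or in differentiation medium with 2% horse serum and an insulin, transferrin and selenium supplement, each at 21% oxygen (normoxia) or 2% oxygen (hypoxia). Each of the 4 groups has 2 RNA-seq libraries, A and B, which the labels call biological replicates without saying whether they were separate cultures, so the p-values measure the spread between these libraries. All libraries come from the same unmodified line and no primary muscle is included. Cells in growth medium were kept below confluence, per the labels, so cell density may differ between the media. The days in differentiation medium and the hours at 2% oxygen are not given in the sources used here. Of the 24 samples of the series, the 16 chromatin samples (H3K27me3 and input) were not analysed here.

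As background, the VEGF ligands differ in the receptors they reach. Vegfa binds Kdr and Flt1 on endothelial cells, Vegfb and Pgf bind Flt1, and Vegfc binds Flt4 and is best known for the growth of lymphatic vessels. Angpt1 activates the endothelial receptor Tek, and Angpt2 can block or weakly activate the same receptor. Angptl4 inhibits lipoprotein lipase and is a known target of the PPAR nuclear receptors, while adrenomedullin widens vessels through Calcrl paired with Ramp2 or Ramp3. When oxygen is low, the hypoxia-inducible factors (HIF) escape hydroxylation and bind DNA at a short core motif, and Vegfa, Angptl4 and Adm are textbook genes of that response in many cell types. Skeletal muscle fibres and myoblasts secrete several of these factors and can so act on the capillaries around them.

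Upstream sequences are shown for Adm, Vegfa, Pgf and Vegfb. In growth medium the rise with hypoxia was steepest for Adm. A rise was called in both media for Pgf, in growth medium for Vegfa and in differentiation medium for Vegfb. Vegfc also rose in both media, and its window, which holds no HIF core motif, is not printed. Each sequence shown is the 250 bases before an annotated transcription start, 5′ to 3′ on the gene's strand, from RefSeq on GRCm38.p6. Capitals mark the HIF core motif, searched as ACGTG and GCGTG on both strands (on the opposite strand they read CACGT and CACGC). The E-box CACGTG contains ACGTG, so the 2 motifs overlap. The windows lie at chr7:110627407-110627656 on the plus strand for Adm, and on the minus strand at chr17:46032378-46032627 for Vegfa (start 1), chr12:85177314-85177563 for Pgf (start 1) and chr19:6987652-6987901 for Vegfb.
Adm: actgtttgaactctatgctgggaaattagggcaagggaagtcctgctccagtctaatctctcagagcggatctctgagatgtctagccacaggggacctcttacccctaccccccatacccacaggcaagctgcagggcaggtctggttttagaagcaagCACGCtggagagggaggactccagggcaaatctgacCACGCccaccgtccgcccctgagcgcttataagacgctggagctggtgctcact
Vegfa: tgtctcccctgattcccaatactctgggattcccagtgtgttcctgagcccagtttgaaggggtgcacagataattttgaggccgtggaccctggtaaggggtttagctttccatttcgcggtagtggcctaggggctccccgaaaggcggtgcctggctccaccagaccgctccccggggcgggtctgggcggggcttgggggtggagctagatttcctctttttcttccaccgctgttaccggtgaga
Pgf: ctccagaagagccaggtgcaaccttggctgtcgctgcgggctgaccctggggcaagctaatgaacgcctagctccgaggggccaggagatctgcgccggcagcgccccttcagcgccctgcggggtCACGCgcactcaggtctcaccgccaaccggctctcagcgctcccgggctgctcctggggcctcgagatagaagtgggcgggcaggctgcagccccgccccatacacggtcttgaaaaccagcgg
Vegfb: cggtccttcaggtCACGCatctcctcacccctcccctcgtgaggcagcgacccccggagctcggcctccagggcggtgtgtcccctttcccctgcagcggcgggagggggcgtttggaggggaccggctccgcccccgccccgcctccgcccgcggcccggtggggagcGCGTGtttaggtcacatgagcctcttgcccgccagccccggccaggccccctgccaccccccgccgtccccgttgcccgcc

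In these windows Adm holds CACGC at 90 and at 54 bases before the start, Pgf holds CACGC at 124 bases, and Vegfb holds CACGC at 237 and GCGTG at 81 bases. The window at Vegfa start 1 holds no match. A further Vegfa start lies inside the gene on the same strand, and its window at chr17:46025164-46025413 holds GCGTG and CACGT at 218 and 211 bases before it. In all, 6 of the 9 genes matched the promoter table, with 8 windows, and 4 of these windows hold a match. Among all 32851 mouse windows of this length, 38.6% hold a match, so the share among these genes is near that of promoters at large. The windows of Vegfc, Angptl2 and Pgf start 2 hold none. No window was matched for Angpt1, Angpt2 and Angptl4. A match is a run of letters and says nothing on whether HIF is bound there.

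Expression is given in FPKM, fragments scaled to library size and to gene length, which allows levels of different genes to be set side by side. Each library had 14917 to 15672 genes above 0, and relative depth ranged from 0.633 to 1, both ends in hypoxic differentiation medium. That pair of libraries stands apart: 613 of the 12389 genes tested differ by over 2-fold between A and B, against 56 to 71 in the other groups. The proliferation gene Mki67 was at 3.46 FPKM in A and 23.6 FPKM in B of that pair. Results of the 9 genes that use it are therefore given with and without each library. The cells carried muscle markers: the sum over 7 myotube markers (such as Myog and Ckm) was 5320 FPKM in both normoxic differentiation libraries, but 8.34 to 17.4 FPKM in hypoxic differentiation medium, which is below the 45.7 to 59.2 FPKM of normoxic growth medium. The group labelled hypoxic differentiation medium thus held the myotube markers far below their level in normoxic differentiation medium. Against hypoxic growth medium 5 of the 7 rose and 0 fell at an adjusted p under 0.05 (limma), where 23.3% and 17.6% of all genes did. In hypoxic growth medium the myotube sum was 3.09 to 4.29 FPKM. All 7 myoblast markers had lower means at 2% oxygen in both media, with a sum in growth medium of 579 to 679 FPKM at 21% oxygen and 166 to 172 FPKM at 2% oxygen. In growth medium Mki67 was at 15.1 and 21.3 FPKM at 21% oxygen and at 12.6 and 9.38 FPKM at 2% oxygen, and Ccnb1 at 38.9 and 42.5 against 17.7 and 15.7 FPKM. Muscle markers thus moved with medium and with oxygen in both media, and proliferation genes moved with oxygen in growth medium. In differentiation medium the 2 hypoxic libraries lay on both sides of the normoxic ones for Ccnb1. It was at 2.35 and 15.7 FPKM at 2% oxygen, against 6.58 and 6.17 FPKM at 21% oxygen. The part of muscle and proliferation markers in the results was not tested. Of 10 endothelial markers, 9 were under 1 FPKM in every library, with Tie1 and Emcn at 0 in all, and the list summed to 1.37 to 7.02 FPKM.

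Hypoxia raised Adm, Angptl4, Vegfc and Pgf in both media, Vegfa in growth medium, and Vegfb, Angpt1, Angpt2 and Angptl2 in differentiation medium. It lowered Angpt1 in growth medium. Angpt2 was called lower there too, but it passed the filter on low values (a mean of at least 1 FPKM in some group) through normoxic growth medium alone, so its lower calls against that group follow from its selection. The tests are moderated linear models (limma) on log2(FPKM + 1), a scale that understates changes near or under 1 FPKM, and a gene is called at an adjusted p under 0.05 over the 12389 genes tested. In growth medium 5 of the 9 genes were called higher at 2% oxygen, where 13.5% of all genes tested were called higher, and 2 were called lower, where 28% of all genes were. In differentiation medium 8 were called higher and 0 lower at 2% oxygen, against 37.5% and 27.7% of all genes, and the gene that was not called is Vegfa. Differentiation medium at 21% oxygen lowered 6 of the 9 and raised 2, against 41% of all genes lower and 25.5% higher. At 2% oxygen the step from growth to differentiation medium gave 2 genes higher and 1 lower, close to the background of 23.3% and 17.6%. Leaving out a hypoxic differentiation library shifted the genes as a whole. The all-gene median of that step was 0.065 with both, 0.125 without library A and 0 without library B. With hypoxia in differentiation medium the all-gene median was 0.147, 0.209 and 0.071 in the same order. There the fitted change without library A was -0.05 for Vegfa and above 0 for the other members. Without library B that change was above 0 for all 9. In bulk RNA, fewer cells that express a gene and less of its RNA per cell cannot be told apart.

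**Figure D1:**
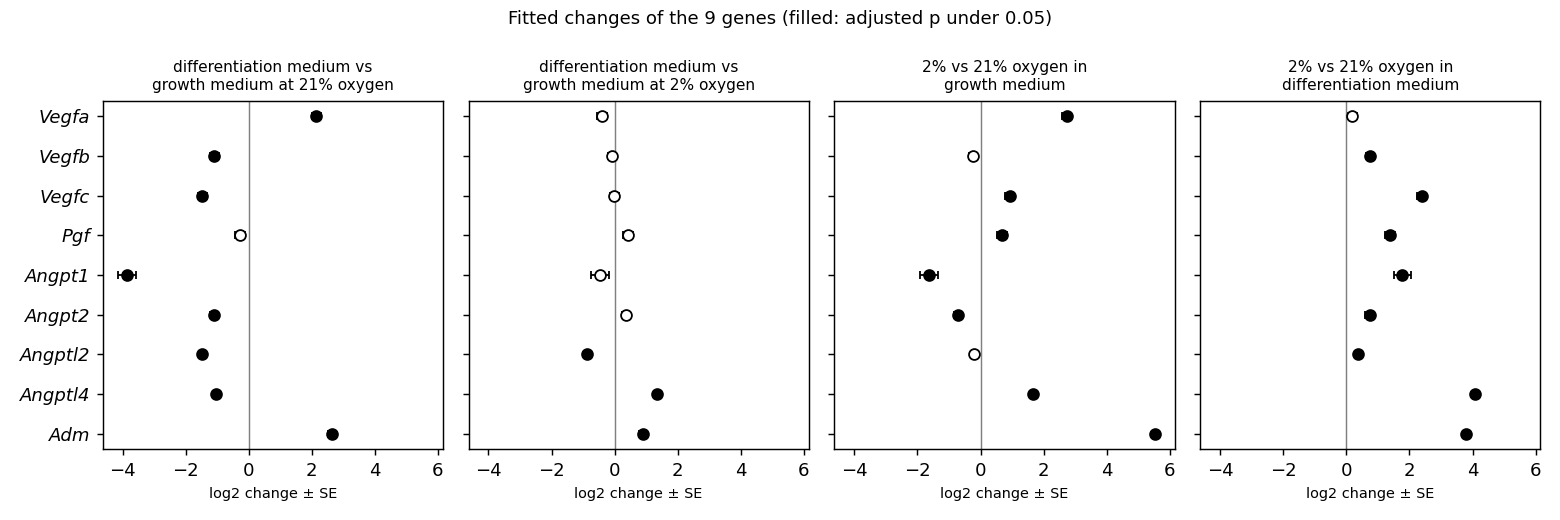
Fitted log2 change with its standard error for each of the 9 genes (rows) in 4 comparisons (panels), where filled points have an adjusted p under 0.05. In differentiation medium 8 of 9 points are filled and right of 0, and at 2% oxygen 6 of the 9 medium effects are open.

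The median fitted change of the 9 genes was 0.69 with hypoxia in growth medium and 1.39 in differentiation medium, where the medians of all genes tested were -0.14 and 0.15. With differentiation medium it was -1.08 at 21% oxygen and -0.01 at 2% oxygen, where all genes had -0.20 and 0.07. The 4 comparisons share libraries in pairs (normoxic growth medium serves in 2 of them, for example), so their values are not independent of each other. Both counts of lower calls against normoxic growth medium include Angpt2. Centring matters for the genes as a whole: median-of-ratios scaling moved the all-gene median of the normoxic differentiation step from -0.20 to 0.03, and the share of higher among all calls from 38.4% to 53.6%. That share went from 32.6% to 43.4% for hypoxia in growth medium (50.6% with upper-quartile scaling) and from 57.5% to 46.5% for hypoxia in differentiation medium. With upper-quartile scaling it went from 56.9% to 45.7% for the step at 2% oxygen.

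**Figure D2:**
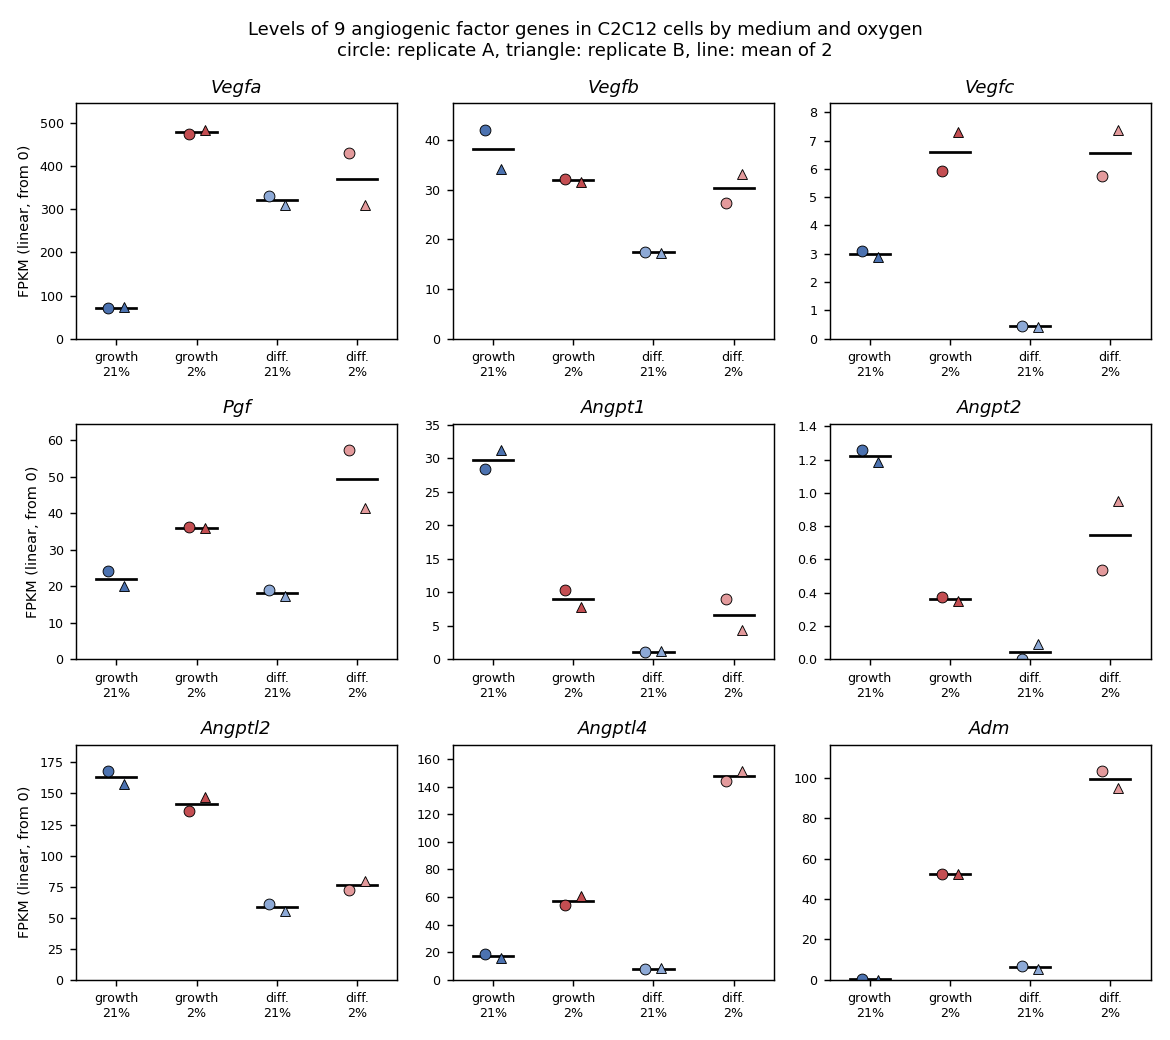
FPKM on linear axes from 0 for each of the 9 genes (panels) by medium and oxygen, with circles for library A, triangles for library B and a line at the mean of the 2. Angptl4 and Adm are highest in hypoxic differentiation medium, Angpt1 and Angptl2 in normoxic growth medium, and Vegfa is low only in normoxic growth medium.

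Vegfa, the main driver of capillary growth, was the most abundant of the 9 in 6 of the 8 libraries. In growth medium Vegfa was at 70.7 and 72.2 FPKM at 21% oxygen and at 475.6 and 485.2 FPKM at 2% oxygen. Differentiation medium gave Vegfa values of 331.7 and 309.7 FPKM at 21% oxygen and 429.9 and 309.6 FPKM at 2% oxygen. Normoxic growth medium is far below the other 3 groups, and the libraries of the 2 differentiation groups overlap. Hypoxia raised Vegfa 6.72-fold in growth medium (log2 change 2.73 ± 0.148 SE, adjusted p = 6.84e-05). Differentiation medium raised it 4.49-fold at 21% oxygen (log2 change 2.15 ± 0.148 SE, adjusted p = 3.17e-05). In differentiation medium the oxygen effect was 0.19 on the log2 scale with a 95% interval from -0.168 to 0.541 (adjusted p = 0.301). Without library A of hypoxic differentiation medium it was -0.05 (adjusted p = 0.582), and without library B it was 0.42 with an adjusted p of 0.0036, so the call depends on the library left out. The oxygen effects of the 2 media differed by -2.54 ± 0.209 (interaction, adjusted p = 0.000145), and by -2.78 and -2.31 without library A and B. At 2% oxygen the step to differentiation medium was -0.40 (adjusted p = 0.0728). It was -0.63 (adjusted p = 0.0015) without library A and -0.16 (adjusted p = 0.149) without library B.

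Vegfb, which acts through Flt1 and is linked to fatty acid handling in muscle, had group means from 17.4 to 38.2 FPKM, a 2.2-fold range that was the narrowest ratio among these 4 ligands. In growth medium Vegfb was at 42.2 and 34.3 FPKM at 21% oxygen and at 32.2 and 31.6 FPKM at 2% oxygen. Differentiation medium gave Vegfb values of 17.5 and 17.3 FPKM at 21% oxygen and 27.4 and 33.2 FPKM at 2% oxygen. Normoxic differentiation medium is below every other library, and both hypoxic groups overlap. Vegfb fell by 1.08 ± 0.127 on the log2 scale in differentiation medium at 21% oxygen, to a level 2.2-fold lower (adjusted p = 0.000343). Hypoxia raised it 1.74-fold in differentiation medium (log2 change 0.76, adjusted p = 0.00186). That change was 0.90 without hypoxic differentiation library A and 0.62 without library B, both called. In growth medium the oxygen effect was -0.25 (adjusted p = 0.169, 95% interval -0.55 to 0.06), and the 2 oxygen effects differed (interaction 1.00, adjusted p = 0.00369). At 2% oxygen the media differed by -0.08 (adjusted p = 0.662), and by 0.06 and -0.21 without library A and B.

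Vegfc, the lymphatic ligand, was the least abundant VEGF ligand in every library. In growth medium Vegfc was at 3.11 and 2.89 FPKM at 21% oxygen and at 5.92 and 7.31 FPKM at 2% oxygen. Differentiation medium gave Vegfc values of 0.452 and 0.420 FPKM at 21% oxygen and 5.76 and 7.39 FPKM at 2% oxygen. Both hypoxic groups overlap, and the normoxic groups lie below them without overlap. Differentiation medium at 21% oxygen lowered Vegfc 6.88-fold (log2 change -1.48 ± 0.145 SE, adjusted p = 0.000153). Hypoxia raised it 2.21-fold in growth medium (log2 change 0.92, adjusted p = 0.00313) and 15.1-fold in differentiation medium (log2 change 2.39, adjusted p = 1.73e-05). The latter change was 2.55 without hypoxic differentiation library A and 2.23 without library B, both called. The oxygen effect was larger in differentiation medium by 1.47 ± 0.206 (interaction, adjusted p = 0.00133). At 2% oxygen the media differed by -0.01 with a 95% interval from -0.358 to 0.338, and by 0.15 and -0.17 without library A and B. A pseudocount of 0.1 in place of 1 gave -2.53 for the fall, 3.63 for the rise in differentiation medium and 2.52 for the interaction.

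Pgf, placental growth factor, was the ligand of these 4 whose level was highest in hypoxic differentiation medium. In growth medium Pgf was at 24.2 and 20.0 FPKM at 21% oxygen and at 36.2 and 35.9 FPKM at 2% oxygen. Differentiation medium gave Pgf values of 18.9 and 17.2 FPKM at 21% oxygen and 57.2 and 41.4 FPKM at 2% oxygen. All 4 hypoxic libraries lie above all 4 normoxic ones. Hypoxia raised Pgf 1.63-fold in growth medium (log2 change 0.69 ± 0.163 SE, adjusted p = 0.0151) and 2.73-fold in differentiation medium (log2 change 1.39 ± 0.163 SE, adjusted p = 0.000346). The latter change was 1.16 without hypoxic differentiation library A and 1.61 without library B, both called. The rise in growth medium had adjusted p of 0.0788, 0.0775 and 0.0742 without normoxic library B, hypoxic library A and hypoxic library B. The interaction was 0.70 (adjusted p = 0.0397), a call lost under both other scalings. The medium effects were -0.27 at 21% oxygen (adjusted p = 0.179) and 0.43 at 2% oxygen (adjusted p = 0.0778). The effect at 2% oxygen was 0.20 (adjusted p = 0.235) without hypoxic differentiation library A and 0.65 (adjusted p = 0.00789) without library B. Without library B the effect at 21% oxygen was also called (adjusted p = 0.048), with the fitted value itself unchanged.

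Summed over Vegfa, Vegfb, Vegfc and Pgf, the ligand transcripts of growth medium came to 134.8 ± 7.64 FPKM (SD, n = 2) at 21% oxygen and 555.0 ± 7.14 FPKM at 2% oxygen. The same sum in differentiation medium was 356.6 ± 17.0 FPKM at 21% oxygen and 456.0 ± 90.9 FPKM at 2% oxygen. The make-up of the sum changed with it. Vegfa was 50.4% and 55.8% of the sum in normoxic growth medium, and 79.0% to 90.0% in the other 6 libraries. Vegfb was 30.1% and 26.5% in normoxic growth medium and at most 8.49% elsewhere. Pgf made up 11.0% and 10.6% in hypoxic differentiation medium, against 5.12% and 5.0% in normoxic differentiation medium.

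**Figure D3:**
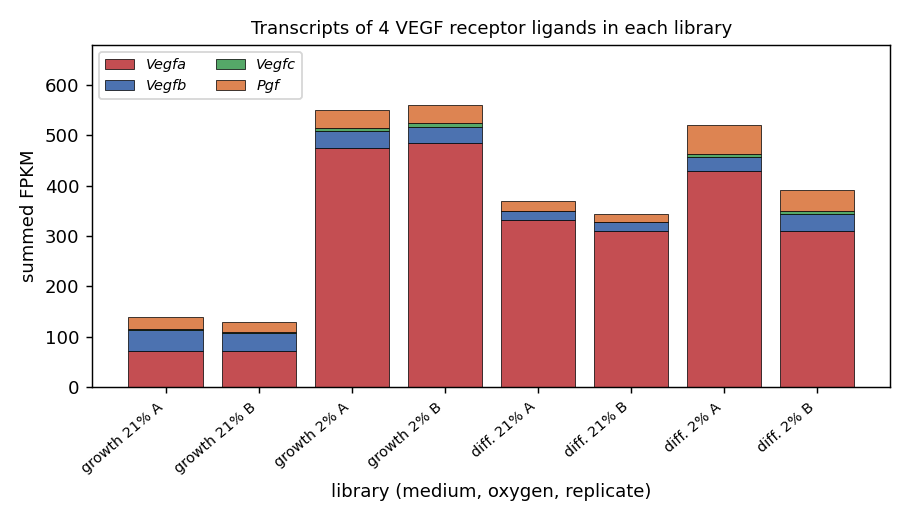
Stacked FPKM of Vegfa, Vegfb, Vegfc and Pgf in each of the 8 libraries, with the bar height giving their sum from 0. The 2 normoxic growth medium libraries stand at 140.2 and 129.4, and Vegfa is the largest segment in every bar.

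Angpt1, the agonist of Tek that steadies vessel walls, was highest in normoxic growth medium and lowest in normoxic differentiation medium. In growth medium Angpt1 was at 28.3 and 31.2 FPKM at 21% oxygen and at 10.3 and 7.83 FPKM at 2% oxygen. Differentiation medium gave Angpt1 values of 1.03 and 1.22 FPKM at 21% oxygen and 8.95 and 4.32 FPKM at 2% oxygen. Both hypoxic groups lie between these and overlap each other. Differentiation medium at 21% oxygen lowered Angpt1 26.4-fold (log2 change -3.86 ± 0.284 SE, adjusted p = 4.24e-05). Hypoxia lowered it 3.29-fold in growth medium (log2 change -1.62 ± 0.284 SE, adjusted p = 0.00482) and raised it 5.9-fold in differentiation medium (log2 change 1.78 ± 0.284 SE, adjusted p = 0.0015). The rise was 1.32 without hypoxic differentiation library A and 2.23 without library B, both called. The interaction was 3.40 ± 0.402 (adjusted p = 0.000638). At 2% oxygen the media differed by -0.45 (adjusted p = 0.245). That difference was -0.91 (adjusted p = 0.00625) without library A and -0.002 (adjusted p = 1.0) without library B. Libraries A and B of that group were 2.07-fold apart for Angpt1, the widest gap of the 9 genes there. Markers of mural cells, a vessel cell type that makes Angpt1, were partly present: the list of 6 summed to 125 to 130 FPKM in normoxic growth medium, 93.1 to 99.7 FPKM with hypoxia, and 33.6 to 47.0 FPKM in differentiation medium at either oxygen level. Of these, Pdgfrb, Notch3 and Cspg4 make up nearly the whole, and Rgs5 and Kcnj8 did not exceed 0.239 FPKM. Abcc9 was at 1.09 and 0.872 FPKM in normoxic differentiation medium and at most 0.00865 FPKM elsewhere. The markers did not move together: with hypoxia in growth medium the means of Pdgfrb and Notch3 were lower. The mean of Cspg4 rose there from 6.20 to 17.7 FPKM. The part of mural markers in the values of Angpt1 was not tested.

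Angpt2, the context-dependent antagonist of Tek, was at 1.26 FPKM or less in every library. In growth medium Angpt2 was at 1.26 and 1.18 FPKM at 21% oxygen and at 0.375 and 0.351 FPKM at 2% oxygen. Differentiation medium gave Angpt2 values of 0 and 0.0899 FPKM at 21% oxygen and 0.539 and 0.953 FPKM at 2% oxygen. The 4 groups do not overlap, and normoxic growth medium is the highest of these low values. The fitted changes were -1.09 with differentiation medium at 21% oxygen (adjusted p = 0.000345), -0.70 with hypoxia in growth medium (adjusted p = 0.00555) and 0.73 with hypoxia in differentiation medium (adjusted p = 0.00227). Both lower calls are against normoxic growth medium, the group through which alone Angpt2 passed the filter, so they follow from its selection. At 2% oxygen the media differed by 0.35 (adjusted p = 0.07). That difference was 0.52 (adjusted p = 0.00543) without hypoxic differentiation library A and 0.17 (adjusted p = 0.201) without library B. The rise with hypoxia in differentiation medium was 0.90 without library A and 0.56 without library B, both called, and 2.57 with a pseudocount of 0.1. No fold is given against normoxic differentiation medium, where library A is listed at 0. The ratio of Angpt1 to Angpt2 was 22.3 to 27.4 in the 4 growth medium libraries and 16.6 and 4.53 in hypoxic differentiation medium. In normoxic differentiation medium it cannot be formed for library A. For library B it was 13.6, which rests on Angpt2 at 0.0899 FPKM, near the floor. Angpt1 thus exceeded Angpt2 in every library.

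Angptl2, an angiopoietin-like protein linked to vessel growth and inflammation, was the most abundant of the 9 in normoxic growth medium. In growth medium Angptl2 was at 168.3 and 157.6 FPKM at 21% oxygen and at 135.9 and 146.9 FPKM at 2% oxygen. Differentiation medium gave Angptl2 values of 61.2 and 55.4 FPKM at 21% oxygen and 72.5 and 79.3 FPKM at 2% oxygen. The 4 groups do not overlap, and medium separates them more widely than oxygen does. Differentiation medium lowered Angptl2 2.79-fold at 21% oxygen (log2 change -1.47 ± 0.089 SE, adjusted p = 1.94e-05) and 1.86-fold at 2% oxygen (log2 change -0.89 ± 0.089 SE, adjusted p = 0.000839). The fall at 2% oxygen was -0.83 without hypoxic differentiation library A and -0.95 without library B, both called. With every library used, no other of the 9 was called lower in that comparison. Hypoxia raised it 1.3-fold in differentiation medium (log2 change 0.38, adjusted p = 0.00921), a call lost with median-of-ratios scaling (0.17, adjusted p = 0.132) and without normoxic library B (adjusted p = 0.0661). The rise was 0.44 without hypoxic library A and 0.31 without hypoxic library B, both called. In growth medium the oxygen effect was -0.20 (adjusted p = 0.113, 95% interval -0.418 to 0.011).

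Angptl4, the inhibitor of lipoprotein lipase, was highest in hypoxic differentiation medium. In growth medium Angptl4 was at 18.5 and 16.2 FPKM at 21% oxygen and at 54.1 and 60.8 FPKM at 2% oxygen. Differentiation medium gave Angptl4 values of 7.58 and 8.20 FPKM at 21% oxygen and 144.3 and 151.6 FPKM at 2% oxygen. No groups overlap, and the libraries that stand apart genome-wide were 1.05-fold apart for this gene. Hypoxia raised Angptl4 3.31-fold in growth medium (log2 change 1.67 ± 0.099 SE, adjusted p = 9.11e-05) and 18.7-fold in differentiation medium (log2 change 4.07 ± 0.099 SE, adjusted p = 3.53e-07). The oxygen effect was larger in differentiation medium by 2.39 ± 0.141 (interaction, adjusted p = 3.73e-05). The effect of differentiation medium was a 2.2-fold fall at 21% oxygen (log2 change -1.04, adjusted p = 0.000133) and a 2.58-fold rise at 2% oxygen (log2 change 1.35, adjusted p = 0.000343). Without hypoxic differentiation library A or B the rise with hypoxia in that medium was 4.10 or 4.03, and the medium effect at 2% oxygen 1.39 or 1.32, all called. The ratio of Angptl4 to Angptl2 was 0.103 to 0.148 in the 4 normoxic libraries, 0.398 and 0.414 in hypoxic growth medium, and 1.99 and 1.91 in hypoxic differentiation medium. Of 6 adipocyte markers, Plin1, Cidec and Lep were at 0 in every library, and the list summed to at most 1.18 FPKM.

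Adm, the adrenomedullin precursor, had the widest range of the 9 genes. In growth medium Adm was at 0.211 and 0.0815 FPKM at 21% oxygen and at 52.4 and 52.5 FPKM at 2% oxygen. Differentiation medium gave Adm values of 6.87 and 5.52 FPKM at 21% oxygen and 103.5 and 95.1 FPKM at 2% oxygen. No groups overlap, and normoxic growth medium is almost without the transcript. Scaled by relative depth, the value of library A there is 2 times that of library B. This ratio alone does not fix the number of fragments, and taking library B as 1 fragment gives 3 in all. On that reading hypoxic growth medium was 380-fold higher, with a 95% counting interval from 130 to 1840, and normoxic differentiation medium 44.9-fold higher, with an interval from 15.4 to 218. These intervals cover counting error only. The fitted changes were 5.55 ± 0.119 for hypoxia in growth medium (adjusted p = 2.67e-06) and 2.65 ± 0.119 for differentiation medium at 21% oxygen (adjusted p = 5.38e-06). In differentiation medium hypoxia raised Adm 16.0-fold (log2 change 3.81 ± 0.119 SE, adjusted p = 1.06e-06). At 2% oxygen the step to differentiation medium was a 1.89-fold rise (log2 change 0.91, adjusted p = 0.00197). Without hypoxic differentiation library A or B these 2 changes were 3.75 or 3.87 and 0.85 or 0.97, all called. The interaction was -1.74 (adjusted p = 0.000274), negative although Adm was called higher in all 4 comparisons. Values against normoxic growth medium depended on the pseudocount: with 0.1 in place of 1, hypoxia in growth medium gave 7.79, differentiation medium at 21% oxygen 4.72 and the interaction -3.80, and with 0.5 the interaction was -2.46. By rank among genes above 0 within a library, Adm ran from 13567 to 689, while Vegfa ran from 1063 to 146.

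All 9 genes had an interaction between medium and oxygen past the threshold, against 35.4% of genes tested with a positive and 18.7% with a negative one. It was positive for 7 genes and negative for Vegfa and Adm, the pair that differentiation medium raised at 21% oxygen. The 7 include Angpt2, which passed the filter on low values through normoxic growth medium alone. A high value in that group adds to a positive interaction, so the call of Angpt2 is tied in part to its selection. Median-of-ratios scaling takes the calls of Pgf (0.39, adjusted p = 0.281) and Angptl2 (0.26, adjusted p = 0.132), and upper-quartile scaling takes that of Pgf (0.46, adjusted p = 0.193). Median-of-ratios scaling also moved the share of positive among all interaction calls from 65.5% to 47.3%. The call of Pgf is also lost without the filter on low values (adjusted p = 0.0619) and when normoxic growth library A (0.12), hypoxic growth library A (0.0995) or B (0.103), or normoxic differentiation library A (0.0829) or B (0.131) is left out. Leaving out hypoxic differentiation library A or B kept the sign of all 9 interactions. Without A or B the value was 1.14 or 0.87 for Vegfb, 1.62 or 1.31 for Vegfc and 0.468 or 0.925 for Pgf. For Angpt1 it was 2.95 or 3.85, for Angpt2 1.61 or 1.26 and for Angptl2 0.642 or 0.515. For Angptl4 it was 2.43 or 2.36 and for Adm -1.80 or -1.68.

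The VEGF ligand outside the 9 is Figf (VEGF-D, a ligand of Flt4). In growth medium Figf was at 13.6 and 14.6 FPKM at 21% oxygen and at 34.2 and 31.2 FPKM at 2% oxygen. Differentiation medium gave Figf values of 1.1 and 1.54 FPKM at 21% oxygen and 67.8 and 39.7 FPKM at 2% oxygen. The groups stood in the order seen for Pgf, with a far wider range. Hypoxia raised Figf 40.9-fold in differentiation medium (log2 change 4.52 ± 0.237 SE, adjusted p = 9.13e-06). Of the other angiopoietin family genes, 2 of 5 were abundant enough to test. Angptl6 rose with differentiation medium at 21% oxygen (log2 change 2.56, adjusted p = 0.000134) and with hypoxia in growth medium (log2 change 2.94, adjusted p = 0.000274), as Vegfa did. Angpt4 was at 1.73 and 1.81 FPKM in normoxic growth medium and at most 0.11 FPKM elsewhere, and it passed the filter through that group alone, so its lower calls there follow from selection. Adm2, a second peptide for the adrenomedullin receptors, was at 0.408 and 0.157 FPKM in normoxic growth medium and between 25.9 and 42.2 FPKM in the other 6 libraries. Its fitted changes were 4.46 for hypoxia in growth medium (adjusted p = 2.77e-05) and -0.19 for hypoxia in differentiation medium (adjusted p = 0.396).

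**Figure D4:**
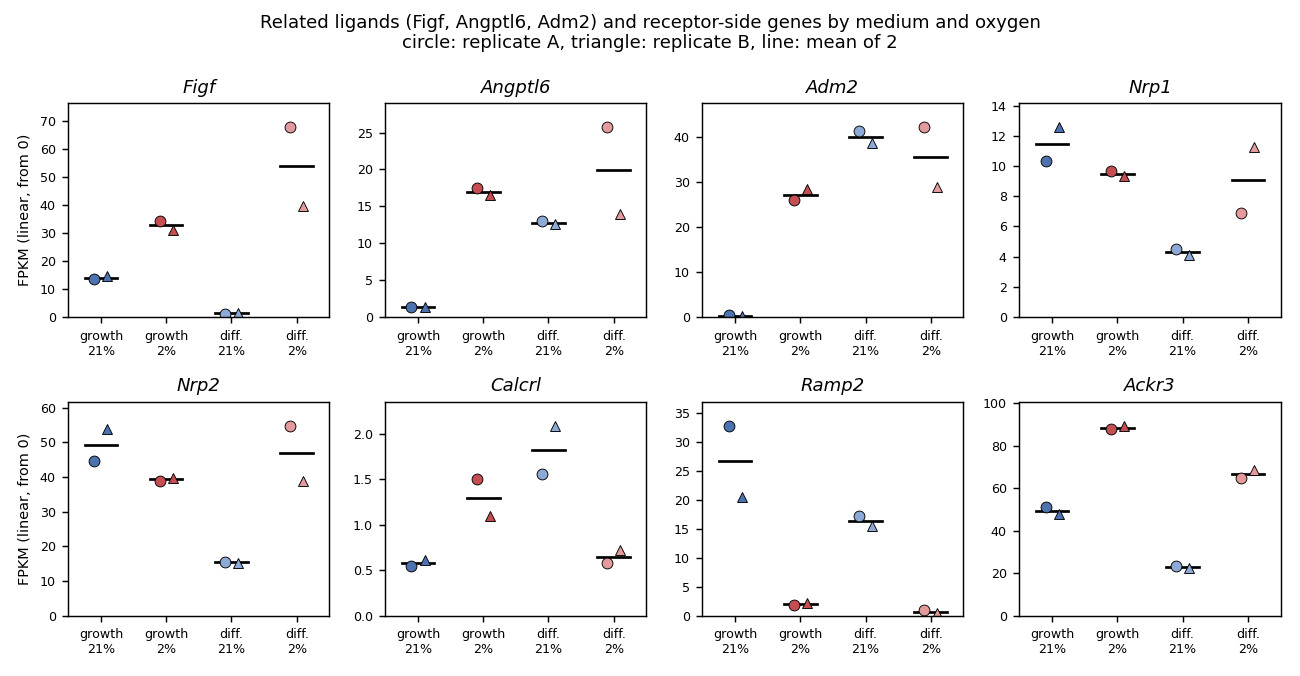
FPKM on linear axes from 0 for 3 related ligands and 5 receptor-side genes (panels) by medium and oxygen, with circles for library A, triangles for library B and a line at the mean. Ramp2 is at 15.5 to 32.8 in the normoxic libraries and at 0.409 to 2.23 in the hypoxic ones, and Nrp1 and Nrp2 are lowest in normoxic differentiation medium.

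The endothelial receptors for these ligands were at or near 0 in these cells, with Flt1 somewhat higher. Kdr and Flt4 did not exceed 0.0192 FPKM, Tek did not exceed 0.363 FPKM, Tie1 was 0 in all 8 libraries, and Flt1 was between 0.199 and 1.09 FPKM. The co-receptors Nrp1 and Nrp2, which bind Vegfa and Pgf isoforms, were expressed. Nrp1 fell by 1.24 (adjusted p = 0.0019) and Nrp2 by 1.61 (adjusted p = 0.000182) with differentiation medium at 21% oxygen. Hypoxia raised them in differentiation medium, by 0.90 for Nrp1 (adjusted p = 0.0082) and 1.53 for Nrp2 (adjusted p = 0.000236). Of the adrenomedullin receptor parts, Ramp2 went opposite to its ligand: it was at 32.8 and 20.6 FPKM in normoxic growth medium and 1.82 and 2.23 FPKM in hypoxic growth medium, a 13.2-fold fall (log2 change -3.16 ± 0.248 SE, adjusted p = 0.00023). In differentiation medium hypoxia lowered Ramp2 23.7-fold (adjusted p = 4.03e-05). Calcrl, the receptor itself, was between 0.547 and 2.08 FPKM, and with hypoxia it rose by 0.54 in growth medium (adjusted p = 0.02) and fell by 0.77 in differentiation medium (adjusted p = 0.00239). Ramp3 was at most 1.28 FPKM and, like Angpt4, passed the filter through normoxic growth medium alone. Ackr3, which takes up adrenomedullin and the chemokine Cxcl12, rose with hypoxia by 0.83 in growth medium (adjusted p = 0.000314) and by 1.49 in differentiation medium (adjusted p = 6.19e-06).

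The HIF pathway itself was examined through 10 regulator genes, of which 8 were tested. In growth medium 3 of the 8 rose and 2 fell with hypoxia, where 13.5% of all genes rose and 28% fell, and in differentiation medium 4 rose and 4 fell, against 37.5% and 27.7%. Egln1 and Egln3, the prolyl hydroxylases that mark HIF for loss and are themselves HIF targets, rose with hypoxia by 2.90 and 3.26 in growth medium (adjusted p = 5.98e-05 and 2.51e-05) and by 2.77 and 0.93 in differentiation medium (adjusted p = 1.07e-05 and 0.000834). Egln3 also rose by 2.84 with differentiation medium at 21% oxygen (adjusted p = 5.91e-06), from 25.8 and 27.4 to 213.6 and 180.5 FPKM. In that comparison Vegfa and Adm rose, and 6 of the 9 genes described fell, Angptl4 among them (-1.04, adjusted p = 0.000133). The part of HIF in these changes was not tested. The transcript of Hif1a, the oxygen-regulated subunit, fell by 0.63 with hypoxia in each medium (adjusted p = 0.0173 and 0.0104). Hif1an, which hydroxylates HIF at another site, rose by 1.05 with differentiation medium at 21% oxygen (adjusted p = 6.48e-05). Of 14 HIF target genes used for reference, 14 rose with hypoxia in each medium, against 13.5% and 37.5% of all genes, with medians of 3.06 and 2.41. The 14 include Ero1l and also Egln3, which is counted among the regulators above as well. Both lists were chosen with earlier results of these data known. At 21% oxygen 9 of these 14 rose and 0 fell with differentiation medium, against 25.5% and 41% of all genes, with a median of 0.64.

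Genes with the most similar profile were found by the root mean square difference between centred log2(FPKM + 1) values over the 8 libraries, where 0 is an identical profile. For Vegfa they were Vldlr (0.079), Cars (0.119) and Bhlhe40 (0.27). Vldlr was at 7.67, 55.1, 37.9 and 45.1 FPKM on average in the order normoxic growth, hypoxic growth, normoxic differentiation and hypoxic differentiation medium. The nearest to Adm was Ero1l (0.257), an oxidase of disulfide formation, while Aire (0.624) and Gpr35 (0.633) were far behind. Ero1l averaged 11.8, 499.4, 70.4 and 861.7 FPKM in the same order. Angptl4 was nearest to Galr2 (0.246), Efnb2 (0.259) and Fam57a (0.264). Efnb2, an ephrin of vessel and nerve patterning, averaged 3.70, 11.7, 1.47 and 25.7 FPKM. The nearest gene was Yeats4 for Vegfb (0.056), Ndn for Vegfc (0.153), Hrh1 for Pgf (0.109), Lgals2 for Angpt1 (0.222), Pgm1 for Angpt2 (0.062) and L3hypdh for Angptl2 (0.094). Among the 9 genes themselves, the closest pair was Vegfb and Angpt2 (0.207), on a scale that compresses the low values of Angpt2.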

How the data were processed

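RNA-seq was made from 8 libraries (4 groups of 2) with a stranded total RNA kit, per the labels' protocols. The authors deposited FPKM values per gene; the submitters' processing notes name STAR 2.5.1b, Cufflinks 2.2.1 and mm9, while the annotation and strand setting are not given in the sources used here. Here log2(FPKM + 1) was fitted with limma 3.58.1 (R 4.3.3, variance trend) over the 12389 genes whose mean reached 1 FPKM in some group, with 4 group means and 4 residual degrees of freedom. The 5 contrasts were tested two-sided with Benjamini-Hochberg adjustment at 0.05. The fit was run on simulated data with 1 spread per gene, the same in all 4 groups. That run does not cover the wider spread of the hypoxic differentiation pair, so it does not bear on p-values there. Absolute depth is unknown; relative depth came from the smallest steps of values up to 0.5 FPKM.

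The members and gene lists were chosen with earlier results of these data known. Named genes were the 9 members, tested receptor and HIF regulator genes, up to 2 genes with the largest called change without overlap per list and contrast, and the 3 nearest profiles per member. A set of 18 alternatives covered pseudocount, filter, scaling, variance model, libraries fitted, replicate block and leaving out each library. Promoter windows came from RefSeq (GRCm38.p6) and were joined by symbol, so no coordinates were carried between builds.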

Additional observations from a re-analysis of the deposited data

Results flagged for a closer look

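The effect of oxygen differed between growth and differentiation medium for each of the 9 genes by the interaction term of the limma fit, on the log2(FPKM + 1) scale. Such calls were common: 35.4% of all genes tested had a positive and 18.7% a negative interaction past the threshold. The difference (hypoxia effect in differentiation medium minus that in growth medium) was 3.4 for Angpt1 (adjusted p = 0.000638), 2.39 for Angptl4 (adjusted p = 3.73e-05), 1.47 for Vegfc (adjusted p = 0.00133), 1.44 for Angpt2 (adjusted p = 0.000849), 1.0 for Vegfb (adjusted p = 0.00369), 0.7 for Pgf (adjusted p = 0.0397) and 0.58 for Angptl2 (adjusted p = 0.00844). It was negative for Vegfa at -2.54 (adjusted p = 0.000145) and for Adm at -1.74 (adjusted p = 0.000274). The calls of Pgf and Angptl2 are lost with median-of-ratios scaling (adjusted p = 0.281 and 0.132), and that of Pgf in 8 of its alternatives. The value of Angpt2 rests on normoxic growth medium, the group through which alone it passed the filter on low values, and that of Adm is -3.80 with a pseudocount of 0.1. Angpt1 was called lower with hypoxia in growth medium and higher in differentiation medium.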

How the results depend on the processing

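The 45 fitted changes of the 9 genes gave 796 values over the alternatives: 770 kept direction and side of the threshold, 14 lost the call, 7 gained one and 5 changed sign, and 33 of the 45 kept both in every alternative run. Changes of sign touched values not called with all libraries: Vegfa with hypoxia in differentiation medium was -0.021 with median-of-ratios scaling and ran from -0.05 to 0.423 when each library was left out, and the medium effect at 2% oxygen ran from -0.214 to 0.056 for Vegfb and from -0.166 to 0.147 for Vegfc. The genes called lower in that comparison ran from 1 to 3 of the 9 when each library was left out (3 without hypoxic differentiation library A), and those called lower with hypoxia in growth medium fell to 1 with a filter at 5 FPKM, since Angpt2 then is not tested. A pseudocount of 0.1 moved several values of Adm, Angpt2 and Vegfc by over 1.5 times, and the 9 genes lost no call with it. Over all genes, hypoxia in growth medium gave 1672 higher and 3463 lower calls, and 987 and 2010 without hypoxic library A or 1046 and 2037 without B. The medium effect at 2% oxygen gave 2888 and 2185, against 1603 and 1264 with only the libraries compared, 1515 and 1173 without hypoxic growth library A and 1414 and 1087 without B. With the letter as a replicate block, 44 of 45 results kept their call and Pgf gained one for the medium effect at 2% oxygen (0.43, adjusted p = 0.0452). The letters were not shown to pair the libraries, since the A minus B differences of the groups correlated at -0.166 to 0.042. Depth limits Adm in normoxic growth medium and Angpt2 throughout, and with 2 libraries a group the spread is shared over all 4 groups.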

Other observations

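Of 26 other angiogenic factor genes, 20 were tested, and 8 rose and 4 fell with hypoxia in differentiation medium. These shares were near the 37.5% and 27.7% of all genes, with a median of 0.35 beside 0.15 for all genes. Of the 4, Pdgfd passed the filter on low values through normoxic differentiation medium alone, so its lower call follows from selection. Cxcl12 is a chemokine that attracts endothelial progenitors. In growth medium Cxcl12 was at 159.4 and 163.0 FPKM at 21% oxygen and at 140.7 and 139.6 FPKM at 2% oxygen. Differentiation medium gave Cxcl12 values of 2.03 and 1.70 FPKM at 21% oxygen and 192.7 and 127.6 FPKM at 2% oxygen. It fell by 5.83 with differentiation medium at 21% oxygen (adjusted p = 1.07e-06, limma), and at 2% oxygen the media differed by 0.16 (adjusted p = 0.515). Igf2, a growth factor of muscle differentiation, was at 272.5 and 269.4 FPKM in normoxic differentiation medium and at most 3.82 FPKM in the other 6 libraries. Apln, the precursor of the vessel peptide apelin, rose with hypoxia 6.79-fold in growth medium (adjusted p = 2.51e-05) and 13.7-fold in differentiation medium (adjusted p = 8.28e-07). Ptn and Hgf, heparin-binding growth factors, were at 69.4 and 71.3 FPKM and at 37.1 and 58.1 FPKM in normoxic growth medium. With hypoxia in growth medium Ptn fell by 3.10 (adjusted p = 7.6e-05), and the change of Hgf was -0.70 (adjusted p = 0.103).

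Among 12 tested angiogenesis inhibitors, 5 rose and 3 fell with hypoxia in differentiation medium, again near the shares of all genes, with a median of -0.02. Timp3, a metalloprotease inhibitor that also blocks Kdr, rose 3.99-fold there (adjusted p = 0.000108), and Thbs2 fell by 1.58 with hypoxia in growth medium (adjusted p = 0.00177). Of 8 tested PPAR factors and targets, the group to which Angptl4 is often assigned, 5 rose and 1 fell with hypoxia in differentiation medium, against 37.5% and 27.7% of all genes. Plin2, a lipid droplet protein, rose 5.52-fold there (adjusted p = 3.21e-05), and Fabp3, a fatty acid carrier of muscle, fell by 5.38 (adjusted p = 2.77e-06). In growth medium 0 of these 8 rose and 1, Rxra, fell with hypoxia (-0.98, adjusted p = 0.000539), against 13.5% and 28% of all genes. Cd68, a lysosomal protein used as a macrophage marker, was at 25.8 and 42.8 FPKM in hypoxic differentiation medium and at most 3.57 FPKM elsewhere, while Ptprc and Emr1 were at or near 0 in every library.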
